A study of Mus musculus with 54 samples.

Results

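The 10 genes described here are Nfe2l2, which encodes the transcription factor NRF2, and 9 genes of antioxidant defence: Nqo1, Gclc, Gclm, Txnrd1, Srxn1, Cat, Sod1, Sod2 and Gpx1. They were taken by symbol from a table of 18079 genes measured in 54 mouse livers. All 10 had a mean of at least 0.5 FPKM and so belong to the 11759 genes that were tested. FPKM is a read density per length of transcript and per depth of library.

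NRF2 is held in the cytoplasm by KEAP1, which delivers it for degradation. Oxidants and electrophiles modify KEAP1, so that NRF2 accumulates, pairs with small MAF proteins and binds antioxidant response elements near its target genes. Nqo1, Gclc, Gclm, Txnrd1 and Srxn1 are classical targets, whereas Cat, Sod1, Sod2 and Gpx1 encode enzymes that remove superoxide and peroxides. BMAL1, encoded by Arntl, is the activator at the core of the circadian clock, and its loss in mice has been linked to oxidative damage.

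The livers came from female C57BL/6J mice aged 8 to 12 weeks, fed normal chow freely under 12 h of light and 12 h of darkness. The genotypes were KO, a BMAL1 knockout; Liver-RE, a BMAL1 knockout in which the BMAL1-stop-FL allele gives BMAL1 back in the liver; and WT. Each genotype was sampled at ZT0, 4, 8, 12, 16 and 20, with 3 mice per time, so that each had 18 libraries; ZT counts hours from lights on. What drives the reconstitution in Liver-RE, and in which liver cells, is not given in the sources used here. KO and Liver-RE mice both lack BMAL1 outside the liver. The study asked how far the clock of the liver runs on its own; here the same design was read for antioxidant genes, as the mean level over the day, as the 24 h rhythm, and at each time.

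Promoters were read from RefSeq on GRCm38.p6, from 250 bases before to 50 bases after a start site, and entries were found for 9 of the 10 genes; Gclc had none. The core of the antioxidant response element, spelled TGACNNNGC and searched on both strands, was present in 5 of the 11 windows of these 9 genes, 1 window per gene, and in 12.4% of all 32851 promoter windows of the same length; Txnrd1 has 3 windows, of which 1 held it. The lines below show the stretch around each match, because it is the sequence by which NRF2 is known to act; capitals mark the core, which reads GCNNNGTCA where it lies on the opposite strand.
Gclm: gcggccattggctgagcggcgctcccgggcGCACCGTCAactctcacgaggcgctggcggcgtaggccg
Nfe2l2: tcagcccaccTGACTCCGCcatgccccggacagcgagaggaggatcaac
Sod1: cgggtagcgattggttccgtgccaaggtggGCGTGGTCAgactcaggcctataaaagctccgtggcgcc
Srxn1: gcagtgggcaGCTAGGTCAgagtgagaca
Txnrd1: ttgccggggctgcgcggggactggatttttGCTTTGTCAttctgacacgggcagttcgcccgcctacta
The Gclm stretch is chr3:122245393-122245461 on the plus strand, the Nfe2l2 stretch chr2:75704865-75704913 on the minus strand and the Sod1 stretch chr16:90220676-90220744 on the plus strand. The Srxn1 stretch is chr2:152105542-152105570 on the plus strand and the Txnrd1 stretch chr10:82859084-82859152 on the plus strand, at a start site that lies inside the span of the gene. The first base of the core lies at position -134 of Gclm, -240 of Nfe2l2, -56 of Sod1, 29 of Srxn1 and -92 of Txnrd1, counted from the start site of that entry. No match was found in the windows of Nqo1, Cat, Sod2 and Gpx1. Elements outside these windows or spelled otherwise were not searched, so this does not show that a gene lacks one. Binding of NRF2 at the printed matches was not tested.

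Motifs of the clock were searched in the same windows. The E-box CACGTG, to which BMAL1 and its partner bind, occurred in 0 of the 11 windows and in 7.15% of all windows, and the D-box TTATGNAA, the site of DBP, in 0 of 11 and in 3.38%. The element AGGTCA of the ROR and REV-ERB receptors occurred in 2 of 11, Cat at position -204 and Srxn1 at -215 and 32, and in 16.3% of all windows. The site at 32 of Srxn1 overlaps the antioxidant element printed above.

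Whole libraries differed as follows. Arntl lay between 6.26 and 8.74 FPKM in KO at every time, between 0.894 and 10.7 in Liver-RE and between 0.350 and 12.1 in WT. The transcript was thus still present in KO, at a steady level, and the files do not show which exons it holds. Dbp, a direct target of BMAL1, was at most 2.56 FPKM in KO, against up to 43.8 in Liver-RE and 66.0 in WT. Clock genes of WT ZT8 replicate 2 and Liver-RE ZT20 replicate 1 stood apart from those of the other mice of their groups, and so did some of Liver-RE ZT0 replicate 3. At ZT8 in WT, Dbp was 61.9, 1.31 and 66.0 FPKM, and at ZT0 in Liver-RE, Arntl was 10.6, 7.75 and 1.91. That last group was graded in Dbp, at 1.61, 5.83 and 15.4, and replicate 3 was not apart in Nr1d1, at 6.01, 8.38 and 5.61. Over 15 clock genes, its replicates 1, 2 and 3 deviated from the group mean by 0.505, 0.187 and 0.545 on average (log2, sign ignored). Whether the group labels of the 3 livers named first are right cannot be told from the files, and all 3 were kept unless stated. Albumin, the defining product of hepatocytes, took 4.82% ± 0.92 of all FPKM in KO, 9.57% ± 1.63 in Liver-RE and 10.2% ± 1.2 in WT (SD, n = 18 each). The sum of FPKM per library ran from 274353 to 419402. In whole tissue, fewer cells of a type and less RNA per cell cannot be told apart.

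The 10 genes differed widely in level. Over all 54 livers, Gpx1 averaged 894 ± 185 FPKM, Cat 752 ± 101 and Sod1 638 ± 95.4 (SD, n = 54), which ranks them 46, 49 and 61 among the 18079 genes. Gclc averaged 72.8 ± 20.4 FPKM, Gclm 60.7 ± 10.9, Sod2 42.0 ± 4.85 and Txnrd1 29.0 ± 3.45. Nfe2l2 averaged 15.8 ± 2.76 FPKM, Srxn1 10.7 ± 2.34 and Nqo1, at rank 5279, 5.71 ± 1.34. The order was steady between some neighbours and not between others. Sod1 lay above Gclc, Sod2 above Txnrd1, Txnrd1 above Nfe2l2 and Srxn1 above Nqo1 in 54 of 54 livers. Gclc lay above Gclm in 41, Cat above Sod1 in 46, Gpx1 above Cat in 47, Nfe2l2 above Srxn1 in 50 and Gclm above Sod2 in 52. Gclc was also the gene that varied most between mice of the same genotype and time, with a within-group SD of 0.33 on the log2 scale, against 0.14 for Sod2, 0.15 for Sod1 and Txnrd1, and a median of 0.18 over all genes tested.

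**Figure D1:**
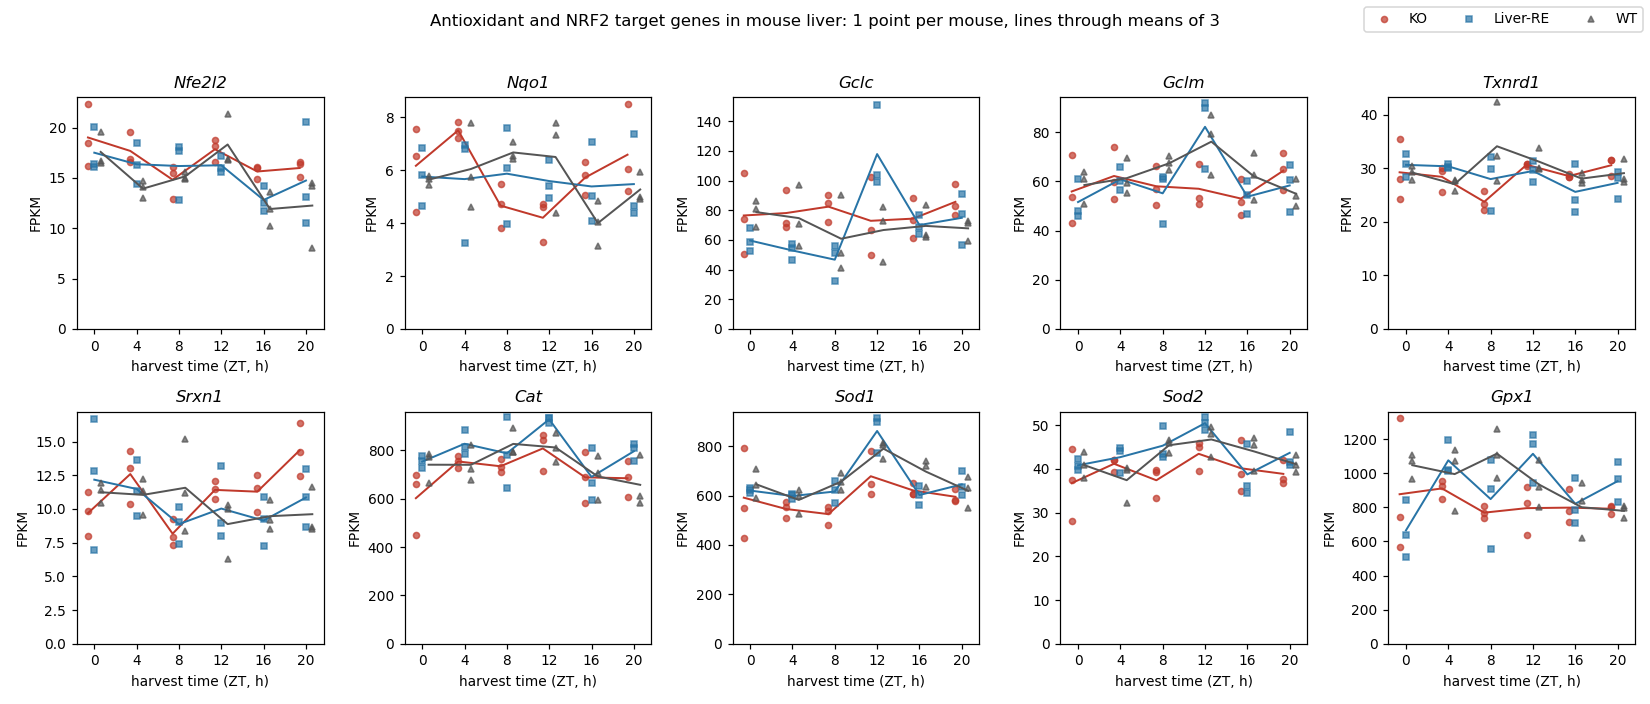
FPKM of the 10 genes by harvest time; each point is 1 mouse, lines join the means of 3 mice, and KO, Liver-RE and WT are set side by side at each time. The genotypes overlap for most genes and times; Gclc stands out at ZT12 in Liver-RE, where its 3 mice lie at 99.2, 151 and 104 FPKM.

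In mean level over the day, 0 of the 10 genes was higher and 1 was lower in KO than in WT, against 16.5% of all genes tested higher and 13.5% lower (limma, Benjamini-Hochberg adjusted p under 0.05). At an unadjusted p under 0.05 there were 3 in this comparison, Nfe2l2, Sod1 and Gpx1, with 4782 of all genes tested. Between Liver-RE and WT, 0 were higher and 0 lower, with 1.18% and 5.88% of all genes tested; here 0 of the 10 also passed at an unadjusted p under 0.05, while 2939 of all genes did. Between Liver-RE and KO, 2 were higher and 0 lower, with 7.42% and 26.7% of all genes tested, and Sod1 joined them at an unadjusted p under 0.05, as 5187 of all genes did. The median log2 fold change of the 10 genes was -0.06 for KO against WT, -0.02 for Liver-RE against WT and 0.02 for Liver-RE against KO; over all genes tested it was 0.02, -0.06 and -0.07. The first and last of these comparisons share the KO livers, and every pair of comparisons shares a genotype, so they are not independent of each other.

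**Figure D2:**
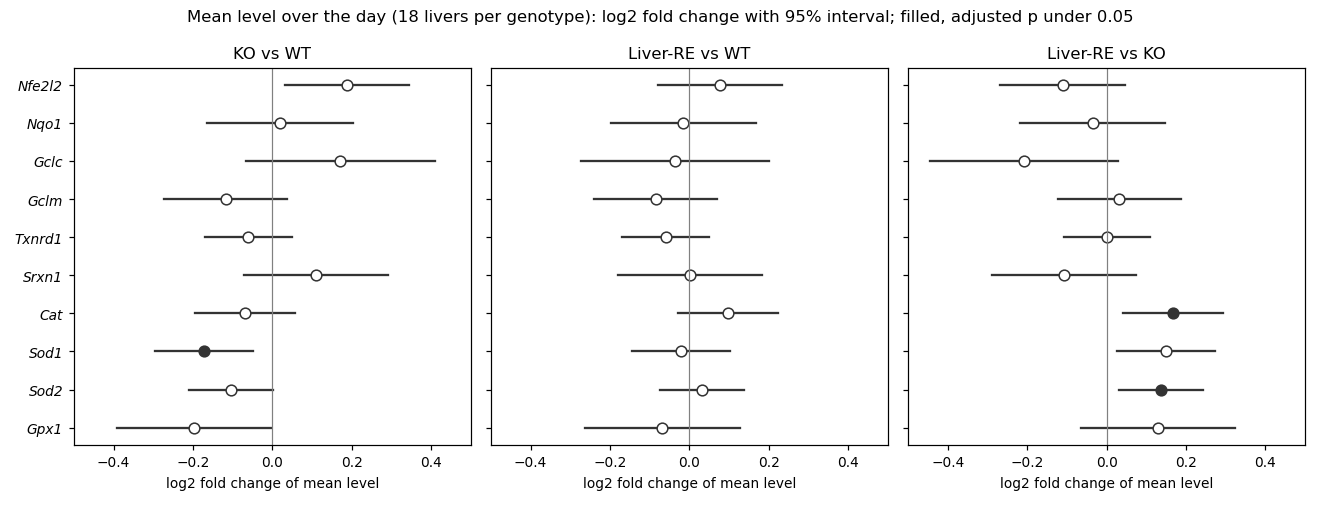
Log2 fold change of the mean level over the day for the 10 genes in each comparison, with 95% intervals; filled points have an adjusted p under 0.05. Filled are Sod1 in KO against WT, at -0.17, and Cat and Sod2 in Liver-RE against KO, at 0.17 and 0.14.

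Sod1 encodes the copper and zinc superoxide dismutase of the cytosol, and lies at chr16:90220762-90226333. Over the 18 livers of each genotype its lowest, median and highest values were 429, 579 and 794 FPKM in KO, 564, 621 and 916 in Liver-RE, and 525, 649 and 814 in WT. The ranges overlapped, and the KO median lay below both others. In KO against WT, Sod1 fell by 0.17 ± 0.06 on the log2 scale (SE, n = 18 each; 95% interval -0.30 to -0.05; adjusted p = 0.0296). In Liver-RE it was 0.15 ± 0.06 above KO, with an adjusted p of 0.0537, and -0.02 ± 0.06 from WT, with an adjusted p of 0.854. The call in KO lay near the threshold. It was lost without WT ZT0 replicate 2, KO ZT0 replicate 1 or KO ZT8 replicate 3. Over all 54 livers left out in turn, the difference ran from -0.21 to -0.15, with adjusted p between 0.00409 and 0.0551. Under 10 other settings of the processing Sod1 stayed called, with adjusted p between 0.0004 and 0.0410.

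Cat encodes catalase, the peroxisomal enzyme that splits hydrogen peroxide, and lies at chr2:103453904-103485153. Its lowest, median and highest values were 449, 722 and 865 FPKM in KO, 596, 798 and 937 in Liver-RE, and 582, 774 and 894 in WT. Cat was higher in Liver-RE than in KO by 0.17 ± 0.06 (log2; SE, n = 18 each; 95% interval 0.04 to 0.29; adjusted p = 0.0354). At ZT12 the 3 Liver-RE mice, at 935, 915 and 936 FPKM, all lay above the 3 KO mice, at 844, 865 and 715, and the 3 WT mice, at 873, 811 and 753. At that time 24.3% of all genes tested did not overlap between Liver-RE and KO, and 25.7% between Liver-RE and WT. Neither contrast of Cat at ZT12 passed (limma adjusted p = 0.449 and 0.486). In KO its level was -0.07 ± 0.06 from WT, with an adjusted p of 0.432.

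Sod2 encodes the manganese superoxide dismutase of mitochondria, and lies at chr17:13007839-13018119. Its lowest, median and highest values were 28.2, 39.4 and 46.7 FPKM in KO, 34.4, 43.1 and 52.0 in Liver-RE, and 32.2, 43.0 and 49.5 in WT. Sod2 was higher in Liver-RE than in KO by 0.14 ± 0.05 (log2; SE, n = 18 each; 95% interval 0.03 to 0.24; adjusted p = 0.0388). In KO against WT its difference was -0.10 ± 0.05, with an adjusted p of 0.127. Neither the Cat nor the Sod2 call between Liver-RE and KO was firm: leaving out any of 10 single livers ended that of Cat, with adjusted p between 0.0134 and 0.0675 over all 54 livers left out in turn, and any of 15 ended that of Sod2, with adjusted p between 0.0144 and 0.0740. Without the 3 livers whose clock genes stood apart, both calls ended, at adjusted p of 0.0575 for Cat and 0.0525 for Sod2.

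The calls of Cat, Sod1, Sod2 and Gpx1 also moved with the scaling. After quantile normalization 4 of the 10 genes were lower in KO than in WT: Cat at -0.15 (log2; adjusted p = 0.00756), Sod1, Sod2 at -0.13 (adjusted p = 0.00228) and Gpx1 at -0.22 (adjusted p = 0.0250). After a rescaling that set aside the 20 genes of highest mean, 3 were lower: Sod1, Sod2 (adjusted p = 0.00131) and Gpx1 (adjusted p = 0.0233). Under each of these scalings 4 genes, Cat, Sod1, Sod2 and Gpx1, were higher in Liver-RE than in KO. The same scalings changed the split of all calls between Liver-RE and KO, which was 873 higher and 3134 lower as deposited, 1457 and 1643 after quantile normalization and 1248 and 1630 after rescaling. Between Liver-RE and WT the split was 139 and 691, 247 and 266, and 187 and 290, and between KO and WT 1940 and 1592, 1987 and 1991, and 1654 and 1972. No direction of Cat, Sod1, Sod2 or Gpx1 turned under these scalings in KO against WT or in Liver-RE against KO.

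Gpx1 encodes the main glutathione peroxidase of the cytosol, which uses glutathione to reduce peroxides. Its lowest, median and highest values were 567, 805 and 1322 FPKM in KO, 511, 957 and 1227 in Liver-RE, and 622, 955 and 1263 in WT. The KO values at ZT0 were 567, 1322 and 743 FPKM, so that the lowest and the highest KO liver came from the same time. Its mean level in KO was -0.20 ± 0.10 from WT (log2; SE, n = 18 each; adjusted p = 0.116), and without the liver at 1322 FPKM the adjusted p was 0.0431.

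Nfe2l2 itself did not pass in any comparison of mean level. Its lowest, median and highest values were 12.9, 16.4 and 22.3 FPKM in KO, 10.5, 16.1 and 20.6 in Liver-RE, and 8.03, 14.8 and 21.3 in WT. The difference of KO from WT was 0.19 ± 0.08 (log2; SE, n = 18 each; 95% interval 0.03 to 0.35), with an adjusted p of 0.0621; it passed when any of 4 single livers was left out (adjusted p of 0.0237 at the lowest) and when a mean per group was fitted (0.0298). Over the 3 mice of a time, the KO values lay above all WT values at ZT4, at ZT16 and at ZT20. At ZT20 they were 16.3, 16.6 and 15.05 FPKM in KO, against 8.03, 14.5 and 14.2 in WT. Of all genes tested, 22.6%, 29.6% and 27.5% did not overlap at these times, in either direction. The contrasts of Nfe2l2 at these times did not pass (limma adjusted p = 0.445, 0.154 and 0.144). At ZT0, ZT8 and ZT12 the values overlapped, with differences of 0.10, -0.04 and -0.03 (log2).

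Among the classical NRF2 targets, none passed in mean level. Nqo1, a quinone reductase often used as a reporter of NRF2 activity, had lowest, median and highest values of 3.28, 5.64 and 8.51 FPKM in KO, 3.24, 5.61 and 7.58 in Liver-RE, and 3.12, 5.71 and 7.77 in WT. The medians of the genotypes lay close together and their ranges overlapped. The difference of KO from WT was 0.02 ± 0.09 (log2; SE; 95% interval -0.16 to 0.20; adjusted p = 0.898). Gclc and Gclm encode the catalytic and the modifier subunit of glutamate-cysteine ligase, which catalyses the rate-limiting step of glutathione synthesis. Gclc had 49.6, 75.2 and 105 FPKM in KO, 32.4, 61.5 and 151 in Liver-RE, and 40.8, 71.2 and 97.0 in WT, with a difference of -0.21 ± 0.12 between Liver-RE and KO (adjusted p = 0.168). Gclm had 43.1, 56.8 and 74.0 FPKM in KO, 42.6, 60.4 and 92.0 in Liver-RE, and 49.98, 62.5 and 86.8 in WT, with a difference of -0.12 ± 0.08 between KO and WT (adjusted p = 0.257). The gene overlaps the lncRNA Gm46822 and the pseudogene Gm6061, and how the authors' counting treated shared reads is not given in the sources used here.

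Txnrd1 encodes the cytosolic thioredoxin reductase, and Srxn1 encodes sulfiredoxin, which restores overoxidized peroxiredoxins. Txnrd1 had lowest, median and highest values of 22.2, 28.8 and 35.4 FPKM in KO, 21.8, 29.8 and 32.8 in Liver-RE, and 25.8, 28.6 and 42.4 in WT. Its mean level differed by -0.06 ± 0.05 between KO and WT (log2; SE; adjusted p = 0.426). The gene overlaps the protein-coding gene Eid3 and the lncRNA Gm38560, under the same limit on shared reads as Gclm. Srxn1 had 7.32, 11.4 and 16.4 FPKM in KO, 6.99, 9.82 and 16.7 in Liver-RE, and 6.31, 10.4 and 15.2 in WT, and differed by 0.11 ± 0.09 between KO and WT (adjusted p = 0.376). The interval of that difference, from -0.07 to 0.29, does not show that the genotypes were alike.

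A 24 h rhythm passed the threshold for 0 of the 10 genes in KO, 0 in Liver-RE and 0 in WT (limma F test of cosine and sine, adjusted p under 0.05), against 0%, 3.82% and 23.5% of all genes tested. At an unadjusted p under 0.05 there were 2 in KO, 1 in Liver-RE and 1 in WT, against 1105, 2479 and 4424 of all genes tested. In WT the fitted peak-to-trough folds of the 10 genes ran from 1.13 for Txnrd1 to 1.39 for Gpx1. WT Sod1 had the smallest WT p of the 10, with a fold of 1.26, a peak at ZT13.2 and an adjusted p of 0.108. In KO, Nqo1 had a fold of 1.47 with a peak at ZT23.7 and an unadjusted p of 0.0148, which became 0.439 after adjustment. The KO values of Nqo1 were high at ZT4, with 7.49, 7.83 and 7.20 FPKM, and low at ZT12, with 4.72, 3.28 and 4.605.

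Gclc in Liver-RE had the widest fitted swing of the 10 genes in any genotype, 1.77-fold with a peak at ZT15.3, and an adjusted p of 0.0740. Its Liver-RE values were 67.9, 58.7 and 52.2 FPKM at ZT0, 46.6, 57.5 and 54.7 at ZT4, and 32.4, 56.2 and 51.5 at ZT8. They were 99.2, 151 and 104 FPKM at ZT12, 69.1, 76.8 and 64.3 at ZT16, and 56.8, 90.8 and 77.2 at ZT20. The 3 values at ZT12 lay above every other Liver-RE value. This rhythm passed with the replicate number as a block (adjusted p = 0.0464), after quantile normalization (0.0171), after rescaling (0.0256) and with group means as terms (0.0413). It did not pass with no filter (0.101), with pseudocount 0.1 (0.0714), with robust empirical Bayes (0.0740), with Liver-RE fitted alone (0.190), without the 2 livers WT ZT8 replicate 2 and Liver-RE ZT20 replicate 1 (0.0574), without those and Liver-RE ZT0 replicate 3 (0.0719), or with any 1 of the 54 livers left out (0.0533 to 0.134).

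**Figure D3:**
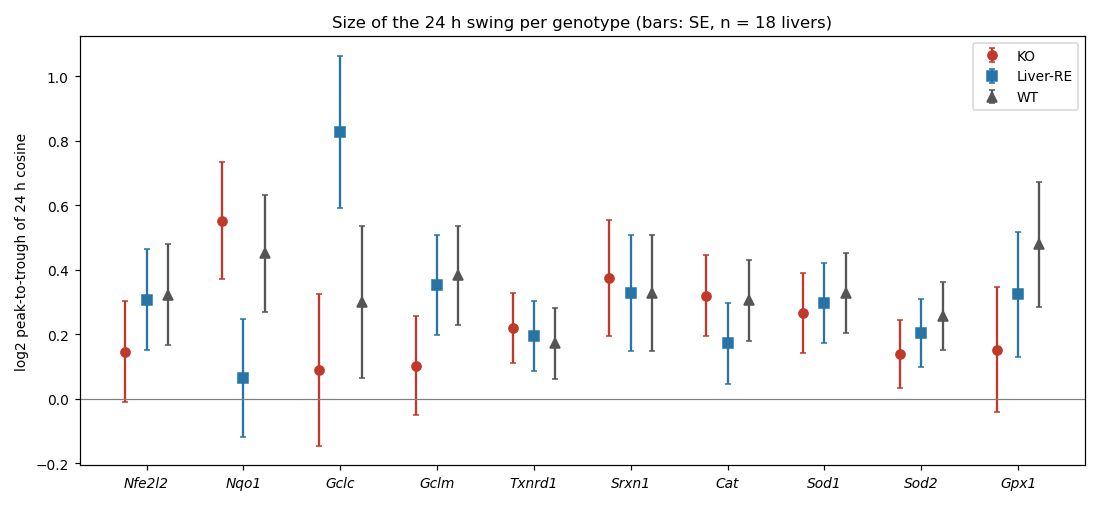
Log2 of the peak-to-trough fold of the 24 h cosine for each gene in KO, Liver-RE and WT; bars are the standard error, with 18 livers per genotype. Gclc in Liver-RE is highest, at 0.83, and most others lie between 0.1 and 0.5. A fitted swing cannot fall below 0, so a value near its error does not show a rhythm, nor that there is none.

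The difference of the rhythm itself was tested too. It passed for 0 of the 10 genes between KO and WT, 0 between Liver-RE and WT and 0 between Liver-RE and KO, against 7.78%, 3.51% and 0.238% of all genes tested. At an unadjusted p under 0.05 there was 1 gene in each. It was Nqo1 between KO and WT (limma adjusted p = 0.121), Gclc between Liver-RE and WT (0.166) and Gclc between Liver-RE and KO (0.358). Unadjusted, 2892, 2094 and 1460 of all genes passed.

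An F test between the 6 times, which assumes no cosine and was added after the data were seen, called Gclc in Liver-RE (adjusted p = 0.0172) and Nfe2l2 in WT (adjusted p = 0.0170). All genes tested were called at 0.051% in KO, where 0 of the 10 were called, 3.71% in Liver-RE and 20.7% in WT. An unadjusted p under 0.05 was reached by 2 of the 10 in KO (Nqo1 and Srxn1), 4 in Liver-RE (Gclc, Gclm, Sod1 and Gpx1) and 2 in WT (Nfe2l2 and Sod1), against 1536, 2882 and 4102 of all genes tested. The highest time mean of Gclc in Liver-RE, 118 ± 28.5 FPKM at ZT12 (SD, n = 3), was 2.51 times the lowest, 46.7 ± 12.6 at ZT8, on the log2(FPKM + 1) scale. Without the liver at 151 FPKM the adjusted p was 0.108. Nfe2l2 in WT averaged 17.6 ± 1.75 FPKM at ZT0, 13.9 ± 0.85 at ZT4, 15.2 ± 0.36 at ZT8, 18.3 ± 2.61 at ZT12, 11.9 ± 1.67 at ZT16 and 12.3 ± 3.66 at ZT20 (SD, n = 3). Its highest means were thus at ZT0 and ZT12, and a single 24 h cosine gave it a fold of 1.25 and an adjusted p of 0.252. The call was lost without WT ZT12 replicate 2, at 21.3 FPKM (adjusted p = 0.0617), after quantile normalization (0.0698) and after rescaling (0.0904).

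At single times, contrasts that were also added after the data were seen, 2 of 180 comparisons of the 10 genes passed, 1 between KO and WT, 1 between Liver-RE and KO and 0 between Liver-RE and WT. Of all genes tested, 3%, 2.52%, 5.23%, 16.3%, 9.3% and 6.57% were called between KO and WT at ZT0, 4, 8, 12, 16 and 20. Between Liver-RE and WT the shares were 0.408%, 0.221%, 0.068%, 3.82%, 2.1% and 0.638%, and between Liver-RE and KO 4.1%, 2.56%, 6.51%, 5.81%, 8.76% and 2.79%. Txnrd1 was lower in KO than in WT at ZT8: it had 23.3, 25.8 and 22.2 FPKM in KO, against 32.4, 42.4 and 27.7 in WT. Those values did not overlap, and the difference was -0.49 ± 0.13 (log2; SE, n = 3 each; limma adjusted p = 0.0141). The liver at 42.4 FPKM is WT ZT8 replicate 2, whose clock genes stood apart; without it and Liver-RE ZT20 replicate 1 the difference was -0.32 with an adjusted p of 0.152. The call was also lost without KO ZT8 replicate 1 or replicate 3.

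Gclc was lower in Liver-RE than in KO at ZT8. It had 32.4, 56.2 and 51.5 FPKM in Liver-RE, against 72.0, 90.2 and 85.2 in KO, with no overlap, and the difference was -0.84 ± 0.26 (log2; SE, n = 3 each; limma adjusted p = 0.0436). Leaving out any of 5 single livers ended this call, as did using no filter on low genes (adjusted p = 0.0630). At ZT12 Gclc had 99.2, 151 and 104 FPKM in Liver-RE, against 45.1, 82.0 and 73.0 in WT, again with no overlap. That difference was 0.83 ± 0.26, with a limma adjusted p of 0.0630; without WT ZT8 replicate 2 and Liver-RE ZT20 replicate 1 it was 0.0397.

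Counting genes whose 3 and 3 values did not overlap, 6 of the 10 lay entirely lower in KO than in WT at ZT8: Nqo1, Txnrd1, Cat, Sod1, Sod2 and Gpx1, against 23.5% of all genes tested in either direction. Sod1 had 555, 537 and 482 FPKM in KO there, against 656, 690 and 622 in WT, and Gpx1 764, 806 and 737, against 1263, 1110 and 973. Of these genes only Txnrd1 passed the contrast at ZT8, with limma adjusted p from 0.162 for Sod1 to 0.605 for Cat in the others. The FPKM sums at ZT8 were 310643, 373591 and 315898 in KO, against 383958, 360997 and 374929 in WT. The part of these sums in the count was not tested. Between Liver-RE and KO at ZT4, 6 of the 10 did not overlap, with 18.3% of all genes tested. Txnrd1, Cat, Sod1 and Gpx1 lay higher and Nqo1 and Gclc lower in Liver-RE. At ZT12, 4 of the 10, Nqo1, Cat, Sod2 and Gpx1, lay higher in Liver-RE than in KO, with 24.3% of all genes tested. The limma contrast between Liver-RE and KO called 0 of the 10 at ZT4 and 0 at ZT12. Between KO and WT the other counts were 0 of 10 at ZT0 (15.6% of all genes tested), 1 at ZT4 (22.6%), 1 at ZT12 (36.7%), 2 at ZT16 (29.6%) and 3 at ZT20 (27.5%). Between Liver-RE and WT they were 2 at ZT0 (19.3%), 1 at ZT4 (12.9%), 1 at ZT8 (13.5%), 2 at ZT12 (25.7%), 0 at ZT16 (21.7%) and 1 at ZT20 (15.9%). Between Liver-RE and KO the remaining counts were 1 at ZT0 (15.1%), 3 at ZT8 (18.3%), 1 at ZT16 (29.8%) and 1 at ZT20 (23.6%). Values that share a library are not independent, as described next.

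In some livers most of the 10 genes lay low together, or high together, within their group. KO ZT0 replicate 1 had the lowest FPKM sum, 274353, and held the lowest value of its group for 8 of the 10 genes, whose median deviation from the group mean was -0.34 (log2). KO ZT0 replicate 2 held the highest for 8 of 10, with a median deviation of 0.29; its FPKM sum was 413945, and the small RNAs Rpph1 and Rmrp took 10.1% of it. In Liver-RE ZT8 replicate 1 and in WT ZT20 replicate 1, 10 of 10 genes were the lowest of their group, and in WT ZT4 replicate 1 and Liver-RE ZT16 replicate 3, 9 of 10. The median of all genes with a mean log2(FPKM + 1) of at least 5 moved the same way in these livers, by -0.28 in KO ZT0 replicate 1, 0.30 in KO ZT0 replicate 2 and -0.20 in Liver-RE ZT8 replicate 1. The part of this shift in the results above was not tested beyond the scalings and left-out livers given.

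**Figure D4:**
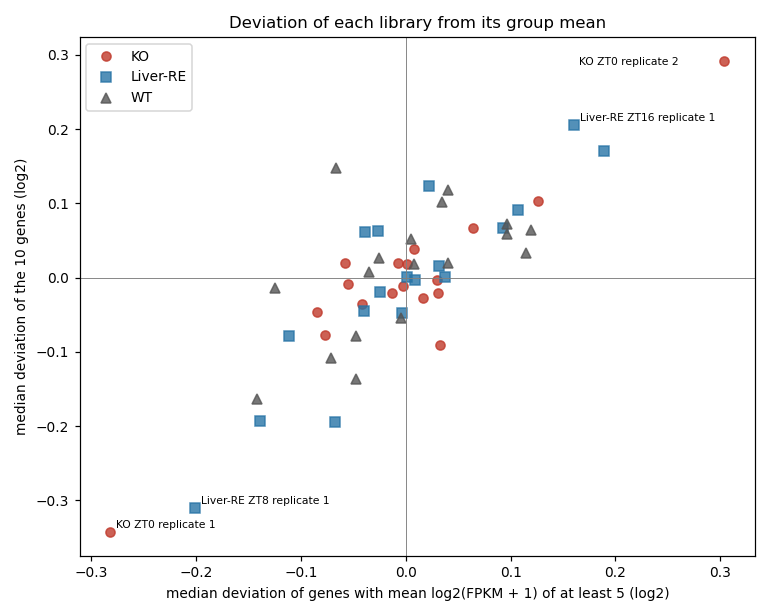
Median deviation of the 10 genes from their group mean (log2) in each of the 54 livers, against the same for genes with a mean log2(FPKM + 1) of at least 5. KO ZT0 replicate 1 lies lowest, at -0.34, and KO ZT0 replicate 2 highest, at 0.29; livers low on one axis tend to be low on the other.

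Likeness was measured as Pearson's r over the 18 group means of log2(FPKM + 1), among 11288 genes, as a description. Sod1 and Sod2 were like each other, with r = 0.828, and Cat and Sod2 with r = 0.780, at which Sod2 was number 7 among the genes most like Cat. The genes with the highest r were Ywhah for Sod1 (0.932), Ak3 for Sod2 (0.926) and Met for Cat (0.880). Prdx6, which encodes a peroxiredoxin, was among the 3 closest of both Sod2 (0.891) and Cat (0.823). Tmx2 was closest to Srxn1 (0.894), Wdr77 to Nfe2l2 (0.875), Blvrb, which encodes biliverdin reductase B, to Gclm (0.870) and Irgm1 to Gpx1 (0.844). Mlx was closest to Txnrd1 (0.839), Rhod to Gclc (0.808) and Siah2 to Nqo1 (0.714). Gclc and Gclm, the subunits of 1 enzyme, had r = 0.419, and Nfe2l2 was no closer than 0.433 to any of the other 9. The points share their libraries, so these values include the shifts of whole libraries.

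Lists of related genes were read against the shares of all genes tested: 16.5% higher and 13.5% lower in KO than in WT, 1.18% and 5.88% in Liver-RE than in WT, and 7.42% and 26.7% in Liver-RE than in KO. Of 10 regulators of NRF2 listed and tested, 4 were lower and 0 higher in KO than in WT, with a list median of -0.14; the other 6 did not pass. Bach1, a repressor that competes with NRF2 at the antioxidant response element, fell by 0.56 ± 0.06 (log2; SE, n = 18 each; adjusted p = 1.61e-11). Maff, a small MAF partner, was at -0.58 ± 0.10, Keap1 at -0.18 ± 0.04 and Sqstm1, whose protein can sequester KEAP1, at -0.16 ± 0.06 (adjusted p = 0.0269). The size for Maff depended on the processing. Under 10 other settings it ran from -1.475 to -0.56 in KO against WT, and from 0.70 to 1.82 in Liver-RE against KO. In Liver-RE against WT 0 of 10 passed, and 4 genes named by the smallest p lay between -0.12 for Rbx1 and 0.17 for Maff. In Liver-RE against KO 2 were higher, Bach1 by 0.55 ± 0.06 and Maff by 0.76 ± 0.10, and 1 was lower, Rbx1, a subunit of the ubiquitin ligase, at -0.22 ± 0.07; after quantile normalization or rescaling 5 were higher, and 4 without the 3 livers whose clock genes stood apart. The call of Rbx1 ended after quantile normalization (-0.14, adjusted p = 0.0506). Rhythmic in WT were 4 of the 10, Cul3, Maff, Bach1 and Sqstm1, against 23.5% of all genes tested. Bach1 had a 1.81-fold rhythm there, with a peak at ZT10.8. In Liver-RE 1 was rhythmic, again Bach1 (1.36-fold, peak at ZT8.6), against 3.82%. The rhythm differed between KO and WT for Bach1 (limma adjusted p = 0.00491) and Sqstm1 (0.0289), against 7.78%. Between Liver-RE and WT it differed for Cul3 (0.0212), against 3.51%.

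**Figure D5:**
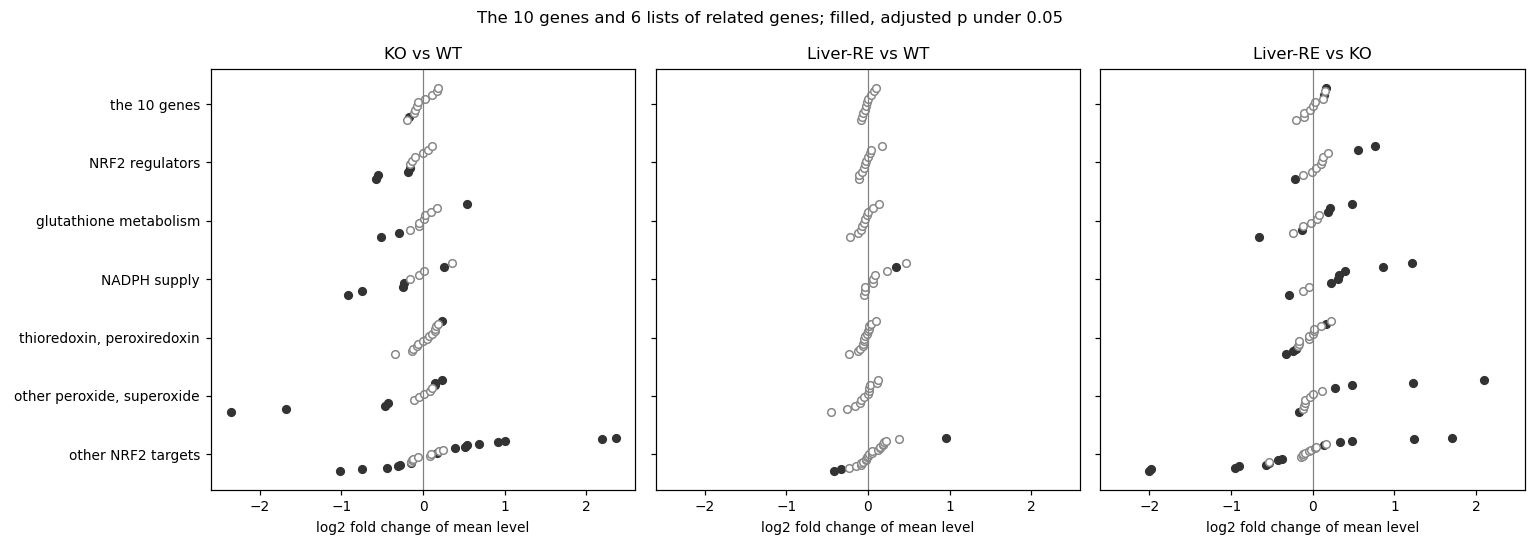
Log2 fold change of the mean level for the 10 genes and for 6 lists of related genes in each comparison; each point is 1 gene, filled where the adjusted p is under 0.05. The 10 genes lie between -0.21 and 0.19, while members of the lists reach -2.36 and 2.36.

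Of 10 tested genes of glutathione metabolism, 1 was higher and 2 were lower in KO than in WT, 0 and 0 in Liver-RE than in WT, and 3 and 2 in Liver-RE than in KO. The call of Glrx2, one of the genes lower in Liver-RE than in KO, ended after quantile normalization (-0.06, adjusted p = 0.359) and rescaling (-0.08, 0.148). With 1 liver left out, the count higher in KO than in WT ran from 1 to 3. Ggct, which encodes gamma-glutamylcyclotransferase, was higher in KO than in WT, at 0.54 ± 0.09, and lower in Liver-RE than in KO, at -0.66 ± 0.09 (log2 fold change; SE). Glrx, which encodes glutaredoxin, was lower in KO than in WT, at -0.51 ± 0.12, and higher in Liver-RE than in KO, at 0.47 ± 0.12. Oplah, which encodes 5-oxoprolinase, was lower in KO than in WT, at -0.29 ± 0.07. In WT 3 of the 10 were rhythmic, Gss, Ggct and Glrx5, against 23.5% of all genes tested. Gss, the enzyme that follows glutamate-cysteine ligase, had a 1.87-fold rhythm with a peak at ZT12.0. Slc7a11 and Ggt1 fell below the level filter.

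NADPH is the reductant behind the thioredoxin and glutathione reductases. A list of 9 held enzymes that supply it, and Pgls, Taldo1 and Tkt of the pentose phosphate pathway, which do not make it themselves. Of the 9, 1 was higher (Pgls) and 4 were lower (Tkt among them) in KO than in WT. The counts were 1 and 0 in Liver-RE than in WT, and 6 and 1 in Liver-RE than in KO. G6pdx, which encodes glucose-6-phosphate dehydrogenase, was -0.91 ± 0.18 in KO against WT and 0.86 ± 0.18 in Liver-RE against KO (log2; SE; adjusted p = 0.000105 and 0.000250). Me1, malic enzyme, was -0.75 ± 0.20 in KO against WT and 1.21 ± 0.20 in Liver-RE against KO, and the mitochondrial isocitrate dehydrogenase gene Idh2 was -0.24 ± 0.07 and 0.32 ± 0.07. Pgls, which encodes 6-phosphogluconolactonase, went the other way, at 0.26 ± 0.06 and -0.29 ± 0.06. The list median was -0.16 for KO against WT and 0.31 for Liver-RE against KO, where 7.42% of all genes tested were higher and 26.7% lower. Pgd was higher in Liver-RE than in WT by 0.35 ± 0.11 (adjusted p = 0.0485), a call lost without any of 30 single livers, with no filter (0.0614) and with those genotypes alone (0.0808).

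Of 14 genes of the thioredoxin and peroxiredoxin system, 1 was higher and 0 were lower in KO than in WT, 0 and 0 in Liver-RE than in WT, and 1 and 3 in Liver-RE than in KO. These counts were unsteady. Between KO and WT, the higher count was 2 with pseudocount 0.1, with group means as terms or with those genotypes alone, and ran from 0 to 3 with 1 liver left out; the lower count was 1 after quantile normalization and 2 after rescaling. Prdx1 was higher in KO than in WT by 0.23 ± 0.09 (log2; SE; adjusted p = 0.0371), a call lost without any of 10 single livers or without the 3 livers whose clock genes stood apart (0.0580). In Liver-RE against KO, Prdx4 was lower, at -0.33 ± 0.10, as were Prdx1, at -0.24 ± 0.09, and Txnrd3, at -0.21 ± 0.06, while Prdx6 was higher, at 0.16 ± 0.06. The call of Txnrd3 ended after quantile normalization (adjusted p = 0.0908) and rescaling (0.0776), and that of Prdx1 after rescaling (0.0527), with those genotypes alone (0.0591) and without the 3 livers (0.0604). The call of Prdx6 ended without any of 15 single livers, with those genotypes alone (0.0585) and without the 3 livers (0.0636).

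Of 12 other genes that act on peroxides, superoxide or metals, 3 were higher and 4 lower in KO than in WT, 0 and 0 in Liver-RE than in WT, and 4 and 1 in Liver-RE than in KO, where the count of lower genes was 0 after quantile normalization and after rescaling, and 0 to 2 with 1 liver left out. The 3 higher in KO than in WT became 1 without the 3 livers whose clock genes stood apart, and 1 to 3 with 1 liver left out. The metallothioneins Mt2 and Mt1 had the widest differences of the list, -2.36 ± 0.52 and -1.67 ± 0.41 in KO against WT, and 2.10 ± 0.52 and 1.22 ± 0.41 in Liver-RE against KO (log2; SE). Selenop, which encodes the selenium carrier of plasma, was -0.43 ± 0.07 and 0.27 ± 0.07 in these comparisons, and Gpx7 -0.47 ± 0.08 and 0.48 ± 0.08. Under 10 other settings of the processing Gpx7 ran from -0.88 to -0.46 in KO against WT. Gpx2 fell below the level filter.

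Of 23 other NRF2 targets, 9 were higher and 6 lower in KO than in WT, 1 and 2 in Liver-RE than in WT, and 5 and 8 in Liver-RE than in KO. Against these stand the shares of all genes tested, 16.5% and 13.5%, 1.18% and 5.88%, and 7.42% and 26.7%. In Liver-RE against WT, 3 were higher and 1 lower after quantile normalization, and 2 and 0 without the 3 livers whose clock genes stood apart. The glutathione S-transferase genes Gstm3 and Gstm2 were 2.36 ± 0.20 and 2.19 ± 0.12 in KO against WT, and -1.98 ± 0.20 and -2.00 ± 0.12 in Liver-RE against KO (log2; SE), and Gstm1 was 1.01 ± 0.10 in KO against WT. These genes have near-identical copies, between which reads could be split in a way not given in the sources used here, so the values of single members are uncertain. Htatip2 was 0.91 ± 0.10 in KO against WT and -0.90 ± 0.10 in Liver-RE against KO. Gsta4 was -1.01 ± 0.13 and 1.24 ± 0.13 in these comparisons, and Gsta2 -0.75 ± 0.25 and 1.71 ± 0.25. In Liver-RE against WT, Gsta2 was higher by 0.95 ± 0.25 (adjusted p = 0.0126), Cbr1 was lower, at -0.33 ± 0.09 (0.0244), and Hmox1, which encodes heme oxygenase 1, was lower, at -0.42 ± 0.12 (0.0243). Hmox1 was lower in KO than in WT too, at -0.44 ± 0.12 (limma adjusted p = 0.00351). Between Liver-RE and KO its difference was 0.02 ± 0.12 (limma adjusted p = 0.907). The call of Hmox1 between Liver-RE and WT ended after quantile normalization (adjusted p = 0.0627), after rescaling (0.0589), with those genotypes alone (0.0509) and without the 3 livers (0.0613). That of Cbr1 between Liver-RE and WT ended without the 3 livers (0.0524). In WT 5 of the 23 were rhythmic, against 23.5% of all genes tested. Osgin1 had the widest rhythm of the list in WT, 5.50-fold with a peak at ZT4.2. Cbr3, Gsta1 and Trim16 fell below the level filter.

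Markers of liver cell types were set beside these results. The summed level of 14 hepatocyte markers ran from 27200 to 50300 FPKM in KO, from 36500 to 73600 in Liver-RE and from 46500 to 65700 in WT, with medians of 36600, 48900 and 54100. Of these 14, 1 was higher and 3 were lower in KO than in WT, 0 and 0 in Liver-RE than in WT, and 1 and 3 in Liver-RE than in KO. Albumin, at 4.82% of all FPKM in KO and 10.2% in WT, is 1 of the 14 and weighs heavily in these sums. The median log2 fold change of the 14 was 0.05 for KO against WT, -0.17 for Liver-RE against WT and -0.18 for Liver-RE against KO. The sums thus do not show that hepatocyte markers as a set were lower in KO. Of 11 Kupffer cell markers, 10 were lower in KO than in WT, against 13.5% of all genes tested, 5 were lower in Liver-RE than in WT, against 5.88%, and 0 were called between Liver-RE and KO; their sum ran from 182 to 403 FPKM in KO, from 183 to 445 in Liver-RE and from 302 to 431 in WT. For 10 endothelial markers the sums ran from 141 to 295, 128 to 215 and 163 to 242, and for 10 stellate cell markers from 152 to 218, 131 to 245 and 159 to 238, in the same order of genotypes. Higher and lower numbered 1 and 1 endothelial and 0 and 2 stellate markers in KO against WT, 1 and 2, and 1 and 0, in Liver-RE against WT, and 0 and 0, and 0 and 1, in Liver-RE against KO. The sums of 7 cholangiocyte markers ran from 14.9 to 77.1 FPKM in KO, 9.12 to 22.2 in Liver-RE and 12.6 to 40.9 in WT, and of 4 erythroid markers from 7.23 to 22.9, 8.69 to 27.9 and 3.23 to 15.5. Those of 8 lymphocyte and neutrophil markers ran from 6.30 to 22.2, 5.36 to 14.8 and 7.16 to 17.4. Of these last lists 2, 1 and 4 genes were tested: the cholangiocyte genes Sox9 and Spp1 were higher in KO than in WT and lower in Liver-RE than in KO, the erythroid gene Alas2 was higher in KO and in Liver-RE than in WT, and the leukocyte gene Ptprc was lower in both than in WT. No listed gene was at 0 in all livers of a genotype. The part of these markers in the results above was not tested.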

How the data were processed

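RNA was sequenced from 54 livers, 3 mice for each of 3 genotypes at 6 harvest times. Per the labels' protocols, ribosomal RNA was depleted from total RNA, and stranded libraries were read as single ends. CASAVA 1.8.2 and mm10 stand in the submitters' processing notes, without a stated role, and no source used here names an aligner or quantification tool. The table deposited by the authors gives no unit for its normalised values, which were taken as FPKM made by the authors, because low values fell on a common step more often once multiplied by transcript length (3.84% ± 0.535 at the most frequent step) than before (1.19% ± 0.0822; SD, n = 54). The steps put the depth near 31.1 ± 3.91 M reads per library. No counts were used, so no interval for counting error is given. Replicates are separate mice as labelled.

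The measure tested was log2(FPKM + 1), on which changes of low genes are understated, and 6320 genes with a mean under 0.5 were left out. In limma 3.58.1 (R 4.3.3), with empirical Bayes moderation that follows expression, each genotype had its own mean, cosine and sine of 24 h. Adjustment was by Benjamini-Hochberg over 11759 genes, with a threshold of 0.05. The functions were tested on simulated data. Python 3.11.15, pandas 2.3.3, numpy 2.4.6 and matplotlib 3.10.9 were also used.

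The 10 genes and the lists were chosen with earlier results of these data known. Named were the 10 genes, up to 4 genes per list with the smallest p per comparison, and the 3 genes most like each of the 10, of which some are printed. The F test between times, the contrasts at single times and the fits without 2 and without 3 livers were added after seeing the data. Coordinates and promoters come from RefSeq on GRCm38.p6, to which mm10 corresponds, and were matched by symbol.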

Additional observations from a re-analysis of the deposited data

How the results depend on the processing

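Over 10 other settings and 900 values of level, rhythm and rhythm difference of the 10 genes, 864 kept their direction and side of the threshold, 18 newly passed, 6 no longer passed and 12 turned direction. Rhythm and rhythm difference are sizes that have no direction, so only values of level could turn. The replicate block, group means, robust, no-filter and genotypes-alone fits also leave the estimate of a level as it is and change only its error. The count of 864 therefore overstates how steady the directions were. Genes of the 10 lower in KO than in WT numbered 4 after quantile normalization and 3 after the 20 highest genes were left out and libraries rescaled, and between 0 and 2 with 1 library left out; genes higher numbered 1 with group means as terms, and 0 to 1 with 1 library left out. Genes higher in Liver-RE than in KO numbered 1 with no filter, 4 after quantile normalization, 4 after rescaling, 0 in a fit of the genotypes concerned alone, 1 without WT ZT8 replicate 2 and Liver-RE ZT20 replicate 1 (below, the 2 libraries), 0 without these and Liver-RE ZT0 replicate 3 (the 3 libraries), and 0 to 3 with 1 library left out. Rhythmic genes in WT numbered 2 after quantile normalization (Cat, adjusted p = 0.00915, and Gpx1, 0.0449) and 1 by the F test between times. In Liver-RE they numbered 1, Gclc, after quantile normalization, after rescaling, with group means as terms and by the F test between times. The cause of these shifts was not tested.

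Calls of Cat between Liver-RE and KO ended with no filter (adjusted p = 0.0543), with those genotypes alone (0.0615) without the 2 libraries (0.0557) and without the 3 (0.0575), and that of Sod2 with those genotypes alone (0.0681) and without the 3 libraries (0.0525). The 12 turned values were all small. Nqo1 was -0.0047 after rescaling in KO against WT, 0.048 after quantile normalization 0.024 after rescaling and 0.017 without the 3 libraries in Liver-RE against WT, and 0.041 and 0.029 in Liver-RE against KO. Gclc in Liver-RE against WT was 0.013 after quantile normalization, 0.0090 after rescaling 0.022 without the 2 libraries and 0.030 without the 3, and Sod1 was 0.028 and 0.024. With 1 library left out, Nqo1 ran from -0.013 to 0.058 in KO against WT, from -0.048 to 0.027 in Liver-RE against WT and from -0.073 to 0.0080 in Liver-RE against KO; Gclc ran from -0.096 to 0.022 and Srxn1 from -0.032 to 0.045 in Liver-RE against WT, and Txnrd1 from -0.015 to 0.027 in Liver-RE against KO.

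Replicate numbers were not taken to pair the samples, since 25 of 54 same-numbered pairs, not all, deviated together with r over 0.1. The mean r was 0.04 for same numbers and -0.02 for different ones. The second value is no separate comparison, because deviations from a group mean cancel within each group. In 2 of 18 comparisons at single times, KO against WT at ZT0 and Liver-RE against KO at ZT12, all 3 pairs passed 0.1, and in 2 of 18 every library was most like its own number. With the number as a replicate block, 1 gene was rhythmic in Liver-RE (Gclc), Sod1 was also called between Liver-RE and KO (0.15, adjusted p = 0.0451), and no other call of the 10 genes changed. With 3 mice per time and 1 sampled cycle, small swings are not resolved.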
